A study of Mus musculus with 6 samples.

Results

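In mice given lipopolysaccharide (LPS), 152 genes were present in BODIPY-high libraries and low to absent in BODIPY-low libraries. The libraries came from cells sorted by a microglial gate and by their lipid stain. Of the 152, 34 are on the list of choroid plexus epithelium genes used here. No gene of the homeostatic microglia list could be among the 152, since all 18 reached the BODIPY-low limit given below. The 152 were chosen from the deposited table of 15912 genes by 3 conditions on normalized counts, which are gene counts divided by a size factor per library. The mean over the BODIPY-low libraries had to be below 50, each BODIPY-high library had to reach 40, and the lowest BODIPY-high value had to be at least 2 times the highest BODIPY-low value. The first condition held for 5231 genes, the first and second for 312, and all 3 for 153. Predicted genes (Gm or Rik symbols) were left out, which removed 1 gene, 1500015O10Rik. The selection used the same values that are described here, so the differences of the 152 between gates are a description and no test supports them.

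The samples were hippocampi of male C57BL/6 mice aged 3 months, with no genetic change listed. Mice of both gates had received LPS, an inflammatory molecule of bacterial cell walls, at 1 mg/kg by injection into the peritoneum for 4 days. Tissue was taken 24 hours after the last injection, and each sample combined the hippocampi of 2 mice. Microglia were taken as live CD11b+CD45lo cells and sorted with BODIPY, which stains neutral lipids, into BODIPY-high cells (3 libraries) and BODIPY-low cells (3 libraries). No saline-treated mice enter the comparison.

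Recovered read totals ran from 37633089 to 39220494 in BODIPY-high libraries and from 34899413 to 36518323 in BODIPY-low libraries. Between 14590 and 15088 genes had reads in BODIPY-high libraries, against 14031 to 14193 in BODIPY-low libraries. A count of 0 allows up to 3 reads, or 2.76 to 3.29 normalized counts. The defining markers of microglia were abundant in both gates: the 18 genes of the homeostatic microglia list summed to 2647181 to 3511970 normalized counts in BODIPY-high libraries and 3340492 to 3843679 in BODIPY-low libraries. Whether libraries of 1 gate stem from different mice is not stated, so the spread over 3 libraries may be partly technical.

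The choroid plexus is a sheet of epithelium in the brain's ventricles that makes cerebrospinal fluid. Its cells move ions, bicarbonate and water with a set of pumps, channels and carbonic anhydrases, carry folate, sulfate and glucose across, and secrete carrier proteins and growth factor binding proteins. Border-associated macrophages live in the meninges, in the spaces along vessels and in the choroid plexus. They share CD11b with microglia and are told from them by lectin and scavenger receptors that bind sugars, hyaluronan and modified lipids.

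Among the lists used, that of choroid plexus epithelium held the most of the 152 genes, and it is the longest of them (65 genes). The lists were chosen with earlier results of these data known, which may shape this order. Each gene was looked up in 20 lists, 18 of cell types other than microglia, 1 of homeostatic microglia and 1 of lipid droplet and fatty acid genes. Of the 152, 63 were on at least 1 list (58 on 1 list and 5 on 2) and 89 on none. Over all genes without a predicted symbol, 152 of 14658 were members. The choroid plexus list gave 34 members out of its 63 genes in the table, border-associated macrophages 10 of 40, astrocytes 10 of 61 and meningeal fibroblasts 6 of 37. Ependymal cells gave 2 of 25 and the lipid list 2 of 38, while dendritic cells, T and NK cells, oligodendrocytes and mural cells gave 1 each. No member was on the lists of monocytes, neutrophils, B cells, mast cells, erythroid cells, platelets, oligodendrocyte precursors, endothelial cells, neurons or homeostatic microglia. The lengths of the lists limit these counts, and a gene on a list may be made by other cells too.

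**Figure D1:**
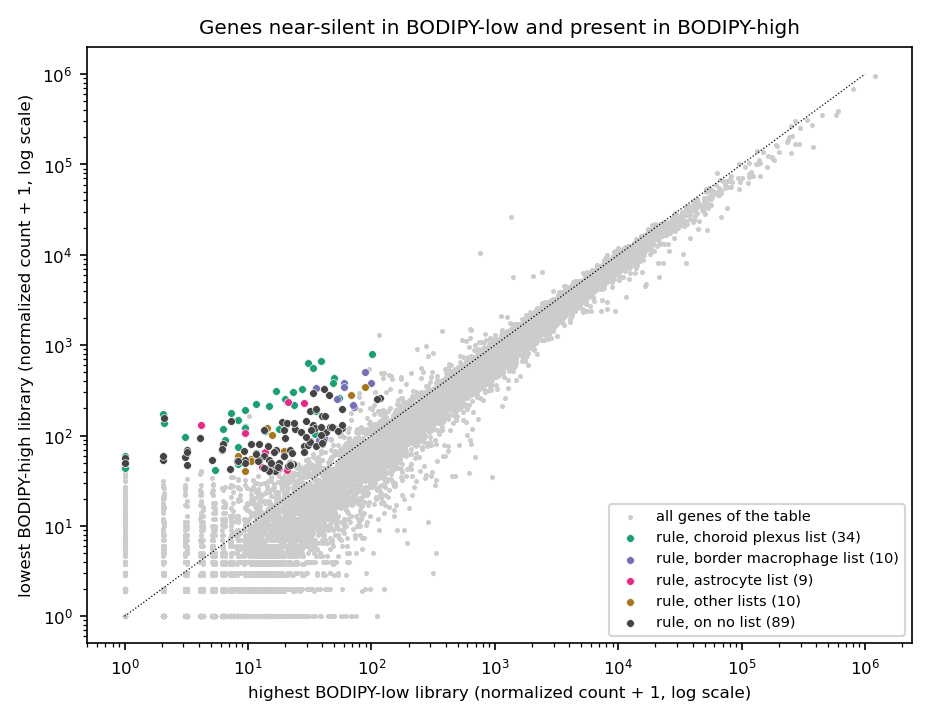
Each point is a gene of the table: the x axis is its highest BODIPY-low library and the y axis its lowest BODIPY-high library, both as normalized count + 1 on log scales, with the 152 genes coloured by marker list (the first list that applies in the order shown) and the line marking equal values. The 152 lie above the line at the left, where 34 carry the colour of the choroid plexus list and 89 are on no list.

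All 152 entered the test across genes, of which limma called 119 higher in BODIPY-high libraries (adjusted p under 0.05 over 12767 genes). That test called 2.03% of all genes tested higher (259 of 12767), and since the selection used the same contrast, nothing is read from the members' count. The members were 45.9% of the 259. With the library number as a block, 151 of the 152 were called, against 4.37% of all genes tested. Without the block, 3 of all genes tested (0.0235%) were called lower, none of them a member. Over all genes, the lowest BODIPY-high library lay above the highest BODIPY-low library in 10.4% of those tested, which the selection demands of every member.

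Together the 152 genes were a small part of each library. Their summed level was 22582, 31758 and 50499 normalized counts in BODIPY-high libraries 1, 2 and 3, against 1610, 1390 and 3331 in BODIPY-low libraries 1, 2 and 3. These sums were 0.0599% to 0.140% of all normalized counts in BODIPY-high libraries and 0.00369% to 0.00895% in BODIPY-low libraries, and the ratio of the mean sums was 16.6. Per member, the ratio of means ran from 2.77 (Pfn2) to 532 (Sema3b), leaving out 5 members with 0 BODIPY-low reads. It was at least 10 in 114 of the 152, those 5 included. Among BODIPY-high libraries the sum was highest in library 3, and among BODIPY-low libraries it was also highest in library 3. In bulk samples such as these, more cells of a type and more RNA per cell cannot be told apart.

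The 34 members on the choroid plexus list summed to 8083, 11663 and 11741 normalized counts in BODIPY-high libraries, against 147, 157 and 656 in BODIPY-low libraries 1, 2 and 3. The ratio of the mean sums was 32.8, and it was 69.1 without BODIPY-low library 3, which held 68.3% of the BODIPY-low counts of these genes. Of the 34, 11 move ions, water or solutes.

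Clic6, of the chloride intracellular channel family, had 665, 1027 and 1024 normalized counts in BODIPY-high libraries 1, 2 and 3, against 14.3, 11.3 and 37.9 in BODIPY-low libraries 1, 2 and 3. Kcnj13 (chr1:87386363-87394729, minus strand, mm10), the potassium channel Kir7.1 of the ventricular face, had 627, 951 and 956 normalized counts in BODIPY-high libraries, against 6.58, 8.25 and 29.5 in BODIPY-low libraries. Per kilobase of exon its mean level was 665 normalized counts in BODIPY-high libraries and 11.6 in BODIPY-low libraries, the highest BODIPY-high level of the 34, but 49.1% of its exon bases are shared with Gigyf2. The libraries were prepared with kits that do not keep strand, so reads of such overlapping genes cannot be told apart. Folr1, the folate receptor that carries folate into cerebrospinal fluid, had 327, 550.4 and 465 normalized counts in BODIPY-high libraries, against 15.4, 0 and 26.3 in BODIPY-low libraries. For each of these genes every BODIPY-high library was more than 10 times the highest BODIPY-low library.

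The transporters of the list covered bicarbonate, sulfate, glucose, monoamines and water. The bicarbonate carrier Slc4a10 averaged 279 ± 56.05 normalized counts in BODIPY-high libraries, against 13.2 ± 10.3 in BODIPY-low libraries (SD, n = 3 each). The related Slc4a5 averaged 149.7 ± 30.5 in BODIPY-high and 3.905 ± 4.25 in BODIPY-low libraries. In both carriers BODIPY-high library 2 was the highest and library 3 the lowest of its gate. The sulfate carrier Slc13a4 averaged 244 ± 67.4 in BODIPY-high and 3.52 ± 4.25 in BODIPY-low libraries. The glucose carrier Slc2a12 averaged 373 ± 62.1 in BODIPY-high and 5.95 ± 8.59 in BODIPY-low libraries. The monoamine carrier Slc29a4 had 117, 290.2 and 331 normalized counts in BODIPY-high libraries, against 3.29, 1.03 and 16.8 in BODIPY-low libraries, so its BODIPY-high library 1 was the lowest of its gate by more than 2 times. The water channel Aqp1 averaged 135 ± 16.3 normalized counts in BODIPY-high libraries and had 0, 0 and 5.26 in BODIPY-low libraries, with its BODIPY-low reads all in library 3. Kcne2, a subunit that modifies potassium channels, also had BODIPY-low reads in library 3 alone, with 125, 270.2 and 238 normalized counts in BODIPY-high libraries, against 0, 0 and 18.95 in BODIPY-low libraries.

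Genes of the list grouped here as enzymes included a hormone coreceptor and enzymes that act on matrix sugars and carbon dioxide. Kl, the membrane protein klotho and coreceptor of the hormone FGF23, had 798, 1237 and 1518 normalized counts in BODIPY-high libraries 1, 2 and 3, against 5.49, 34.03 and 100.0 in BODIPY-low libraries 1, 2 and 3. Its 3 BODIPY-low libraries differed among themselves by more than its BODIPY-high libraries did in proportion, and the ratio of means was 25.5, or 59.9 without BODIPY-low library 3. Sulf1, which trims sulfate from heparan sulfate, had 434, 485 and 475 in BODIPY-high libraries, against 3.29, 0 and 48.4 in BODIPY-low libraries. Both Kl and Sulf1 had their highest BODIPY-low value in library 3. The carbonic anhydrase Car12 averaged 455 ± 68.7 normalized counts in BODIPY-high libraries, against 16.9 ± 26.4 in BODIPY-low libraries (SD, n = 3 each). The related Car14 averaged 128 ± 35.8 in BODIPY-high and 4.27 ± 1.92 in BODIPY-low libraries. Of the exon bases of Car14, 17.5% are shared with Aph1a.

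Secreted and matrix proteins made up 8 of the 34. Igfbp2, which binds insulin-like growth factors and is also on the meningeal fibroblast list, had 553, 794 and 863 normalized counts in BODIPY-high libraries, against 6.58, 7.22 and 32.6 in BODIPY-low libraries. Sostdc1, a secreted antagonist of BMP and WNT signals, averaged 388 ± 125 in BODIPY-high and 7.05 ± 10.4 in BODIPY-low libraries. The collagen chain Col9a3 averaged 391 ± 90.9 in BODIPY-high and 16.02 ± 8.59 in BODIPY-low libraries. The 2 chains of collagen VIII were members as well. Col8a2 averaged 266 ± 43.02 in BODIPY-high and 4.22 ± 5.46 in BODIPY-low libraries, and Col8a1 is given with the genes of few BODIPY-low reads. Igf2, a growth factor on both lists, had 47.05, 53.8 and 132 normalized counts in BODIPY-high libraries, against 2.19, 0 and 7.37 in BODIPY-low libraries. Of its exon bases, 62.8% are shared with the predicted gene Gm49394, and its BODIPY-high library 3 was 2.61 times the mean of the other 2, the highest such ratio of the 34.

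Several members of this list were at the floor of detection in BODIPY-low libraries. Sema3b, a secreted guidance factor, had 576 reads over the BODIPY-high libraries and 1 over the BODIPY-low libraries, a ratio of 528 after scaling (95% counting interval 94.4 to 20883). Cldn2, the claudin of leaky epithelia, had 616 reads in BODIPY-high and 2 in BODIPY-low libraries, a ratio of 282 (77.8 to 2336). Col8a1 had 368 and 3 reads in the BODIPY-high and BODIPY-low gates, a ratio of 112 (38.2 to 548). Steap1, of a family of metal reductases, had 281 reads in BODIPY-high libraries and 0 in BODIPY-low libraries, at least 85.8-fold higher against a floor of 3 reads over the BODIPY-low group. Htr2c, a serotonin receptor, had 151 reads in BODIPY-high and 0 in BODIPY-low libraries, at least 46.1-fold higher. Intervals and floors cover counting error only, since reads copied by PCR are not independent molecules.

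Otx2, the homeobox regulator of choroid plexus identity, was the most even of the 152 genes across BODIPY-high libraries by highest over lowest value, with 185, 184 and 186 normalized counts, against 2.19, 1.03 and 34.7 in BODIPY-low libraries 1, 2 and 3. BODIPY-low library 3 held 91.5% of its BODIPY-low counts. The ratio of means was 14.6, and 115 without that library. The epithelial keratin Krt18 had 110.1, 235 and 187 normalized counts in BODIPY-high libraries, against 1.097, 0 and 12.6 in BODIPY-low libraries, and the prolactin receptor Prlr had 122, 166 and 182 in BODIPY-high libraries, against 0, 6.19 and 8.42 in BODIPY-low libraries.

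**Figure D2:**
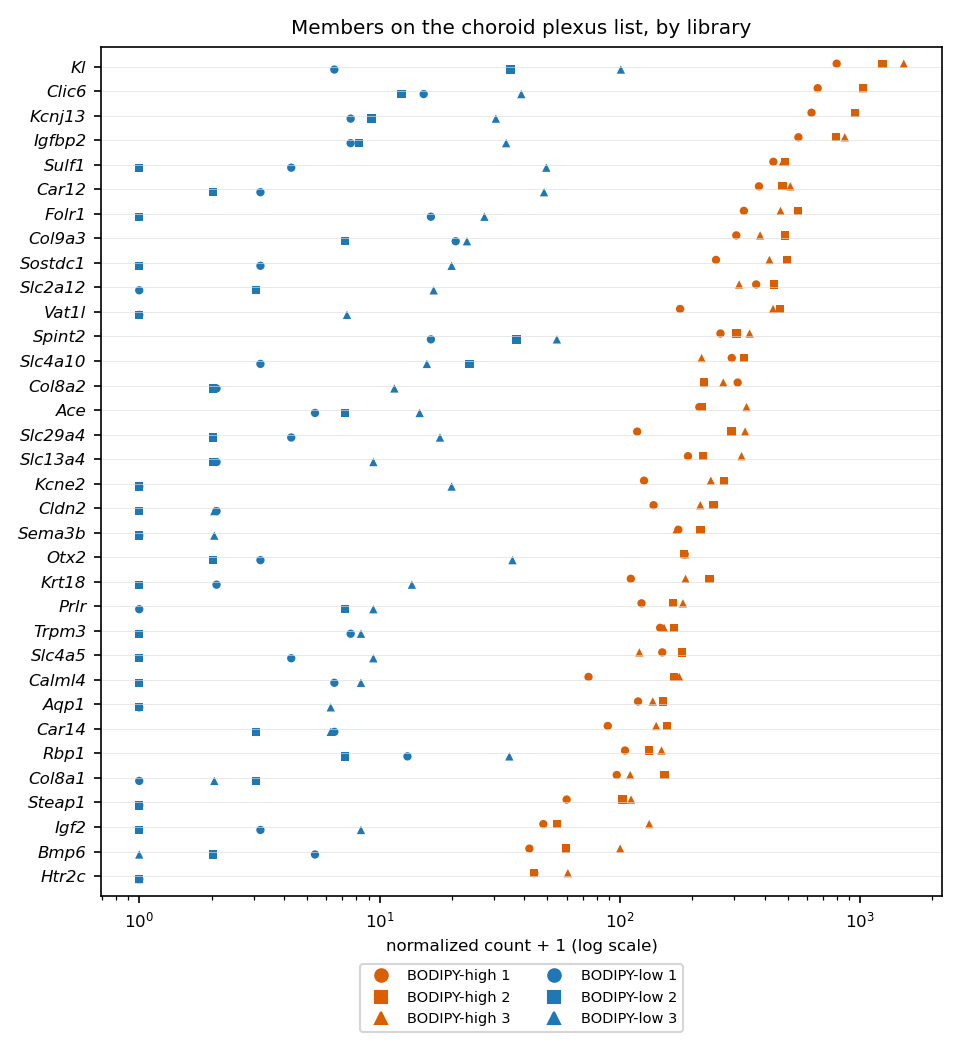
Normalized counts + 1 on a log scale (x axis) of the 34 members on the choroid plexus list (rows, ordered by their BODIPY-high mean), with orange symbols for BODIPY-high libraries 1 to 3 and blue symbols for BODIPY-low libraries 1 to 3. Orange and blue symbols are apart in every row, as the selection demands, and among blue symbols the triangle of library 3 is the highest in 27 of the 34 rows.

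Promoters of members on the choroid plexus and macrophage lists were read for short motifs, since these genes were present together in the same libraries. RefSeq promoters (GRCm38.p6, 250 bases before to 50 after the first listed start) were found for 112 of the 152 members, 27 of the choroid plexus and 6 of the macrophage list. Both strands were searched for TAATCC (OTX2), GTTGCC (RFX), TGCTGA (MAF), GAGGAAGT (PU.1) and ACAAAG (SOX), strings none of which holds another. TAATCC was in 11.1% of choroid plexus promoters (3 of 27), 7.14% of members (8 of 112), 5.33% of promoters of genes tested and 7.16% of all 27025 promoters. It was also in 1 of 6 macrophage and 1 of 7 astrocyte promoters, in both cases that of Ednrb, and in 3 of 65 promoters of members on no list. GTTGCC was in 22.2% of choroid plexus promoters (6 of 27) and 18.8% of members, against 12.7% of genes tested and 12.7% of all promoters. Members on no list held it in 13 of 65 promoters, so the choroid plexus share lay near that of other members. The 3 promoters with TAATCC and 2 of those with GTTGCC are shown over the 250 bases before the start site, 5′ to 3′ on the gene's strand, with the motif (or its reverse complement) in capitals:
Vat1l (TAATCC, chr8:114205390-114205639, plus strand): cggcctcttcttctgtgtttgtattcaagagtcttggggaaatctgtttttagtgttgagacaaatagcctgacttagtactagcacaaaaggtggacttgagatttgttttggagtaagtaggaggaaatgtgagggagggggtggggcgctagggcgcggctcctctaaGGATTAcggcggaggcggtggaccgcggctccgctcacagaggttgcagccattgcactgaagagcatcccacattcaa
Ace (TAATCC, chr11:105967698-105967947, plus strand): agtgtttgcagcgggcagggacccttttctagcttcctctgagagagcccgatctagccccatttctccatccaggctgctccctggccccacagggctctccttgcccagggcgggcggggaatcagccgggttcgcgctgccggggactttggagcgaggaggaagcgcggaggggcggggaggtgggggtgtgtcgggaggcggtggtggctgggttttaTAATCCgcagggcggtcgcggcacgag
Car14 (TAATCC, chr3:95904686-95904935, minus strand): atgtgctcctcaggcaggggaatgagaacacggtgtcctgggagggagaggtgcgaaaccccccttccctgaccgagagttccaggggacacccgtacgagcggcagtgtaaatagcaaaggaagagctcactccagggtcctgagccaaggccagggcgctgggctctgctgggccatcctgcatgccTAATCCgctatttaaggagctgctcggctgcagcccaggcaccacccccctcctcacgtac
Kcne2 (GTTGCC, chr16:92292139-92292388, plus strand): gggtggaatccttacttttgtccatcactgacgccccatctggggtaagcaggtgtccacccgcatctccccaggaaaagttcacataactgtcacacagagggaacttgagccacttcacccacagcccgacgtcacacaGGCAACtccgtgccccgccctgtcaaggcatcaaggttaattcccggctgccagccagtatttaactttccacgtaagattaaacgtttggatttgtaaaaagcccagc
Otx2 (GTTGCC, chr14:48667645-48667894, minus strand): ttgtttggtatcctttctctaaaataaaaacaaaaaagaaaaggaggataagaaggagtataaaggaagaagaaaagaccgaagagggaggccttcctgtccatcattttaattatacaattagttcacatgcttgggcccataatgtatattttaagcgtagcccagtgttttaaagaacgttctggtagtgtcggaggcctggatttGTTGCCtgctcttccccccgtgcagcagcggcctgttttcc

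The motif lay 79, 27, 61, 109 and 41 bases before the start in Vat1l, Ace, Car14, Kcne2 and Otx2. The promoter of Car14 also held GTTGCC or its reverse complement within the 300 bases searched. A match is a run of letters and was not tested as a binding site. Vat1l had 177, 464 and 433 normalized counts in BODIPY-high libraries, against 0, 0 and 6.32 in BODIPY-low libraries, with its BODIPY-low reads all in library 3. Ace, the angiotensin-converting enzyme, had 213, 219 and 336 in BODIPY-high libraries, against 4.39, 6.19 and 13.7 in BODIPY-low libraries.

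The list's best known gene, Ttr, was no member, because its BODIPY-low mean was above 50. Ttr, the thyroxine carrier that this epithelium secretes, had 10566, 13784 and 17591 normalized counts in BODIPY-high libraries, against 133, 170.2 and 752 in BODIPY-low libraries 1, 2 and 3. Enpp2, the enzyme autotaxin, which oligodendrocytes also make, had 26481, 34209 and 30122 normalized counts in BODIPY-high libraries, against 132, 255 and 1341 in BODIPY-low libraries. F5, Rdh5 and Pcp4l1 also missed by the BODIPY-low mean alone. A further 10 genes of the list missed by both the BODIPY-low mean and the gap, and 1 by the BODIPY-high level and the gap. Another 13 genes of the list missed by the BODIPY-high level alone, among them Lmx1a, a homeobox regulator of this epithelium, with 33.03, 54.8 and 23.9 normalized counts in BODIPY-high libraries and 0 in each BODIPY-low library. Over the 59 genes of the list that were tested, 44 were called higher in BODIPY-high libraries and 0 lower (50 with the block). Their median log2 difference was 5.10. The 59 include the 34 members, chosen by the same contrast, so these values partly restate the selection. The whole list summed to 63718 to 81905 normalized counts in BODIPY-high libraries and 17290 to 18953 in BODIPY-low libraries; over all genes tested, 259 of 12767 were called and the median was near 0.

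The 10 members on the border-associated macrophage list summed to 2897, 4421 and 15218 normalized counts in BODIPY-high libraries 1, 2 and 3, against 250.1, 143 and 603 in BODIPY-low libraries 1, 2 and 3. The ratio of the mean sums was 22.6, and 11.01 without BODIPY-high library 3. It was 38.2 without BODIPY-low library 3. The rule was met by 6 genes of the list without BODIPY-low library 2 and by 13 without BODIPY-low library 3.

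Of these 10 genes, 9 code for receptors. Cd209f (chr8:4102787-4105835, minus strand), a C-type lectin of the DC-SIGN family, had 509, 982 and 3397 normalized counts in BODIPY-high libraries 1, 2 and 3, against 38.4, 18.6 and 87.4 in BODIPY-low libraries 1, 2 and 3. Its close relative Cd209g (chr8:4134098-4137707, plus strand) had 93.1, 257 and 887 in BODIPY-high libraries, against 20.8, 5.16 and 40.01 in BODIPY-low libraries. For both genes BODIPY-high library 3 was the highest of its gate by more than 3 times and BODIPY-low library 2 the lowest of its gate. Clec10a, a lectin of galactose-type sugars, had 218, 332 and 1503 normalized counts in BODIPY-high libraries, against 2.19, 12.4 and 69.5 in BODIPY-low libraries. Its neighbour and relative Mgl2 had 339, 404 and 933 in BODIPY-high libraries, against 41.7, 18.6 and 58.96 in BODIPY-low libraries, with the same library highest in each gate. Reads of such paralogs may be split between them, so each value is uncertain.

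Clec4n, the fungal lectin receptor Dectin-2, had 379, 549 and 1795 normalized counts in BODIPY-high libraries, against 30.7, 11.3 and 97.9 in BODIPY-low libraries. Lyve1, the hyaluronan receptor that marks macrophages along vessels, had 421, 338 and 1091 in BODIPY-high libraries, against 6.58, 6.19 and 34.7 in BODIPY-low libraries. Timd4, a receptor for phosphatidylserine on dying cells, had 88.1, 129 and 542 in BODIPY-high libraries, against 0, 0 and 36.9 in BODIPY-low libraries. In all 3 genes BODIPY-high library 3 was more than 2 times any other of its gate, and the BODIPY-low reads of Timd4 were all in library 3. The scavenger receptor Colec12 averaged 942 ± 827 normalized counts in BODIPY-high libraries, against 38.3 ± 21.3 in BODIPY-low libraries (SD, n = 3 each). The endothelin receptor Ednrb, which astrocytes also make, averaged 629 ± 489.9 in BODIPY-high and 45.1 ± 7.94 in BODIPY-low libraries. BODIPY-high library 3 was the highest of its gate in all 10 genes and widens these SDs. Pla2g2d, a secreted phospholipase, had 208, 434 and 1997 normalized counts in BODIPY-high libraries, against 34.01, 3.09 and 71.6 in BODIPY-low libraries. Its highest BODIPY-high value was 9.59 times its lowest, the widest such ratio of these 10, while Cd209f had the largest SD among BODIPY-high libraries.

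**Figure D3:**
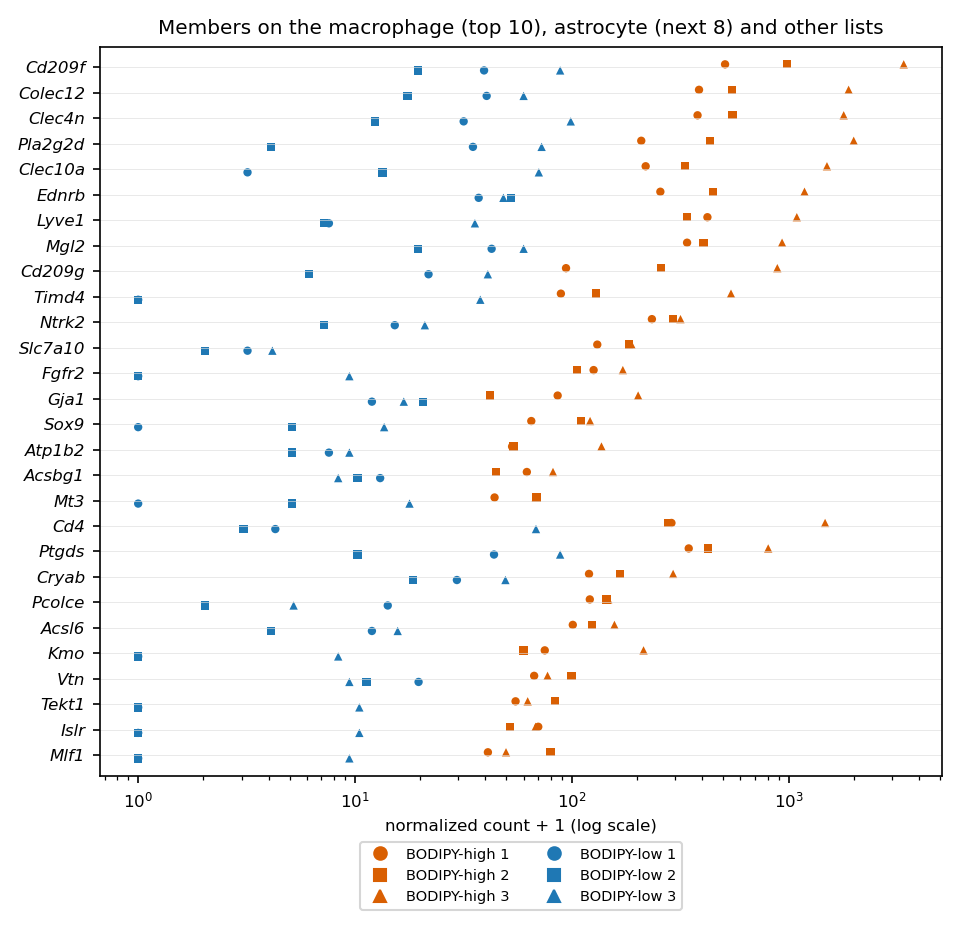
Normalized counts + 1 on a log scale (x axis) of members on other lists, by row, with the 10 macrophage genes at the top, then astrocyte genes, then the rest, orange for BODIPY-high and blue for BODIPY-low libraries. In each of the 10 macrophage rows the orange triangle of BODIPY-high library 3 stands apart to the right, while in most rows further down the 3 orange symbols lie closer together.

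The motif TGCTGA (MAF) was in 2 of the 6 macrophage promoters and 18.8% of members, against 15.1% of promoters of genes tested and 19.1% of all. It was also in 4 of 7 astrocyte, 2 of 6 meningeal fibroblast and 5 of 27 choroid plexus promoters, so it was not limited to the macrophage list. GAGGAAGT (PU.1) was in 0 of these 6 and 2 of the 112 members, against 3.30% of genes tested, and ACAAAG (SOX) was in 14.3% of members and 13.8% of genes tested. The promoter of Ednrb also holds the reverse complement of TAATCC, left in lower case here. The letters of TGCTGA lay 242 bases before the start in Ednrb and in 2 places of Timd4, the first 150 bases before the start:
Ednrb (TGCTGA, chr14:103843702-103843951, minus strand): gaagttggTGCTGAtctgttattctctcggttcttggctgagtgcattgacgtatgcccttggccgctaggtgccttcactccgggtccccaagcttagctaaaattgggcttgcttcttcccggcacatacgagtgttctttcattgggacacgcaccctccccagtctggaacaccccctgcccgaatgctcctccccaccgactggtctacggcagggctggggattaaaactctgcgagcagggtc
Timd4 (TGCTGA, chr11:46810549-46810798, plus strand): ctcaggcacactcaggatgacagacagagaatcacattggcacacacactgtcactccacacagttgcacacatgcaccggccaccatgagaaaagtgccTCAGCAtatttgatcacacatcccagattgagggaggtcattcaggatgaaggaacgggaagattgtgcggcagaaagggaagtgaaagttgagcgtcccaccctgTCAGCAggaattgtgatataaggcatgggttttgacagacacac

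Macrophage genes with a BODIPY-low mean above 50 were no members. Of the list, 9 genes missed by the BODIPY-low mean alone, among them Mrc1 and Cd163, and 14 by that mean and the gap. Another 3 missed by the gap alone, 3 by the BODIPY-high level and the gap, and 1 by the BODIPY-high level alone. Mrc1, the mannose receptor CD206, had 5833, 7743 and 23101 normalized counts in BODIPY-high libraries, against 709, 579 and 2046 in BODIPY-low libraries. Cd163, the hemoglobin scavenger receptor, had 1442, 2172 and 6588 in BODIPY-high libraries, against 59.2, 52.6 and 371 in BODIPY-low libraries. In both genes BODIPY-high library 3 and BODIPY-low library 3 were the highest of their gates. Of the 39 genes of the list tested, 15 were called higher in BODIPY-high libraries and 0 lower, or 28 higher with the block. Their median log2 difference was 3.09. The 39 include the 10 members, chosen by the same contrast, so these values partly restate the selection. Over all genes tested, 2.03% were called higher (4.37% with the block). The whole list summed to 83105 to 196165 normalized counts in BODIPY-high libraries and 56455 to 66412 in BODIPY-low libraries.

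The 10 members on the astrocyte list summed to 1279, 1626 and 2871 normalized counts in BODIPY-high libraries, against 92.2, 125 and 167 in BODIPY-low libraries, a ratio of mean sums of 15.03. Atp1b2, a sodium pump subunit, averaged 80.3 ± 48.3 normalized counts in BODIPY-high libraries, against 6.38 ± 2.16 in BODIPY-low libraries (SD, n = 3 each). Slc7a10, a carrier of small neutral amino acids, had 130.1, 182 and 188 in BODIPY-high libraries, against 2.19, 1.03 and 3.16 in BODIPY-low libraries. In both genes library 3 held the highest value of each gate. The neurotrophin receptor Ntrk2 had 233, 292 and 316 in BODIPY-high libraries, against 14.3, 6.19 and 20.01 in BODIPY-low libraries. Fgfr2, a growth factor receptor, had 125, 105 and 171 in BODIPY-high libraries, against 0, 0 and 8.42 in BODIPY-low libraries. The regulator Sox9 had 64.1, 109.7 and 120.5 in BODIPY-high libraries, against 0, 4.13 and 12.6 in BODIPY-low libraries. Several of these genes are made by other epithelia and glia too.

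Other defining astrocyte genes did not pass the rule. Gfap, the astrocyte filament protein, had 61.1, 97.7 and 109 normalized counts in BODIPY-high libraries, against 25.2, 15.5 and 32.6 in BODIPY-low libraries, and missed by the gap. Aqp4, the water channel of astrocyte endfeet, had 25.03, 7.98 and 22.99 in BODIPY-high libraries, against 1.097, 1.03 and 6.32 in BODIPY-low libraries. The glutamate carrier Slc1a3 had 12437, 11041 and 9230.3 in BODIPY-high libraries, against 11034, 11683 and 10582 in BODIPY-low libraries, and its gates overlapped. Of the 42 astrocyte genes tested, 15 were called higher and 0 lower (23 higher with the block), with a median log2 difference of 2.38. The 42 include the 10 members, chosen by the same contrast, and 2.03% of all genes tested were called higher.

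Of the 6 members on the meningeal fibroblast list, 3 (Igfbp2, Igf2 and Slc13a4) were also on the choroid plexus list. The other 3 were Ptgds, Pcolce and Islr. Ptgds, which makes prostaglandin D and is also expressed by choroid plexus, had 345, 425 and 805 normalized counts in BODIPY-high libraries, against 42.8, 9.28 and 87.4 in BODIPY-low libraries. Pcolce, an enhancer of collagen maturation, had 120.1, 144 and 146 in BODIPY-high libraries, against 13.2, 1.03 and 4.21 in BODIPY-low libraries. The defining fibroblast collagen Col1a1 was at 0, 0 and 9.196 normalized counts in BODIPY-high libraries and 0 in each BODIPY-low library, at or under 3 reads in 5 of the 6 libraries. Over the 20 genes of the list tested, 8 were called higher (9 with the block). The 20 include the 6 members, chosen by the same contrast, and 2.03% of all genes tested were called higher.

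The ependymal members were Tekt1, a protein of cilia, and Mlf1. Tekt1 had 54.1, 82.8 and 61.6 normalized counts in BODIPY-high libraries, against 0, 0 and 9.48 in BODIPY-low libraries. Foxj1, the master regulator of motile cilia, was at 4.004, 36.9 and 34.03 normalized counts in BODIPY-high libraries, against 0, 0 and 2.11 in BODIPY-low libraries, below the level the rule asks for. Of 14 ependymal genes tested, the 2 members included, 3 were called higher (4 with the block), against 2.03% of all genes tested. Mlf1 drops out when libraries are scaled to equal totals or by TMM, since its BODIPY-high library 1 was at 40.04, against a limit of 40.

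The T and NK cell list gave Cd4, which macrophages and dendritic cells can express. Cd4 had 287, 278 and 1473 normalized counts in BODIPY-high libraries 1, 2 and 3, against 3.29, 2.06 and 67.4 in BODIPY-low libraries 1, 2 and 3. The ratio of its means was 28.0. Leaving out BODIPY-high library 3 lowered it to 11.7, and leaving out BODIPY-low library 3 raised it to 254. The T cell receptor component Cd3d was at 1.001, 0.997 and 6.44 normalized counts in BODIPY-high libraries, against 0, 0 and 6.32 in BODIPY-low libraries. The kinase Lck was at 2.002, 3.99 and 14.7 in BODIPY-high libraries, against 12.1, 0 and 0 in BODIPY-low libraries. Cd28, a costimulatory receptor of T cells that is on no list, had 230 reads in BODIPY-high libraries and 0 in BODIPY-low libraries, at least 70.3-fold higher. In 1 of 6 tested genes of the T and NK cell list the call was higher, with the block also 1. The 6 include the member Cd4.

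Kmo, an enzyme of tryptophan breakdown and the 1 dendritic cell member, had 74.1, 58.8 and 213 normalized counts in BODIPY-high libraries, against 0, 0 and 7.37 in BODIPY-low libraries. Cryab, a small heat shock protein on the oligodendrocyte list, had 119, 166 and 292 in BODIPY-high libraries, against 28.5, 17.5 and 48.4 in BODIPY-low libraries, and 17.0% of its exon bases are shared with Hspb2. Vtn, the adhesion protein vitronectin on the mural cell list, had 66.1, 98.7 and 76.3 in BODIPY-high libraries, against 18.7, 10.3 and 8.42 in BODIPY-low libraries. In the other lists, the genes called higher among those tested were 1 of 18 for dendritic cells (6 with the block), 5 of 30 for oligodendrocytes (7 with the block), 2 of 12 for mural cells, 2 of 41 for endothelial cells, 2 of 8 for erythroid cells (5 with the block) and 3 of 9 for oligodendrocyte precursors (4 with the block). They were 0 of 13 for monocytes and 0 of 14 for neutrophils (2 each with the block), 0 of 4 for platelets (1 with the block), 0 of 2 for B cells, 0 of 3 for mast cells and 0 of 11 for neurons. The genes tested for dendritic cells, oligodendrocytes and mural cells include 1 member each. Over all genes tested, 2.03% were called higher (4.37% with the block). With limma at an unadjusted p under 0.05, 1025 of all 12767 genes were higher and 290 lower.

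The gates were set by droplet load, and 2 members were on the lipid droplet and fatty acid list. Acsl6 and Acsbg1 both activate long-chain fatty acids. Acsl6 had 100.1, 123 and 156 normalized counts in BODIPY-high libraries, against 10.97, 3.09 and 14.7 in BODIPY-low libraries, and Acsbg1, also on the astrocyte list, had 61.1, 43.9 and 80.9 in BODIPY-high libraries, against 12.1, 9.28 and 7.37 in BODIPY-low libraries. Plin2, the main coat protein of droplets, was well expressed in both gates, with 2317, 2808 and 3427 normalized counts in BODIPY-high libraries, against 2111, 2110.0 and 2353 in BODIPY-low libraries. Of 29 genes of the list tested, 5 were called higher and 0 lower (6 higher with the block), with a median log2 difference of 0.12. The 29 include the 2 members, and 2.03% of all genes tested were called higher. None of the 18 homeostatic microglia genes was called (1 lower with the block), with a median log2 difference of -0.21. The difference was above 0 in 1 of the 18, against 6284 of the 12767 genes tested. The 18 summed to 3511970, 3228541 and 2647181 normalized counts in BODIPY-high libraries 1, 2 and 3, against 3843679, 3487254 and 3340492 in BODIPY-low libraries 1, 2 and 3. Each BODIPY-high sum was below the BODIPY-low sum of the same library number, while the ranges of the gates overlapped. Its part in the values of the 152 genes was not tested.

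**Figure D4:**
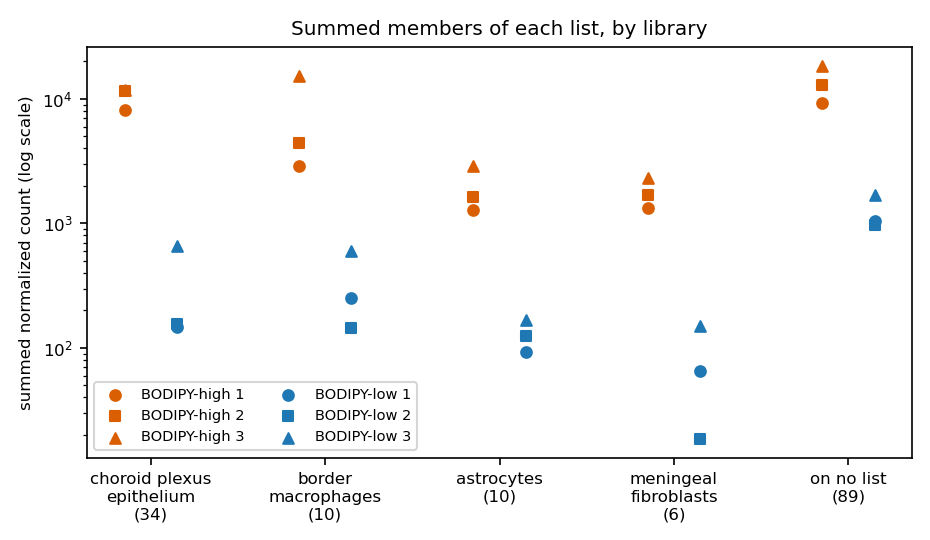
Summed normalized counts (log scale, y axis) of the members on 4 lists and of those on no list (number of members in brackets), with orange symbols for the BODIPY-high libraries left of blue symbols for the BODIPY-low libraries. The macrophage sum of BODIPY-high library 3 (15218) stands far above those of libraries 1 and 2, while the choroid plexus sums of libraries 2 and 3 (11663 and 11741) lie together.

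The 89 members on no list summed to 9302, 12991 and 18512 normalized counts in BODIPY-high libraries, against 1039, 974 and 1687 in BODIPY-low libraries, a ratio of mean sums of 11.03. By role they held 13 enzymes, 12 transporters and channels, 11 proteins of cytoskeleton, junctions and cilia, 10 receptors and 7 secreted or matrix proteins. A further 7 act in signalling, 2 are chaperones, 1 regulates transcription and 26 were given no role. The roles were assigned by hand from general knowledge.

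Among receptors on no list, Tlr8, a sensor of RNA in endosomes, had 262, 303 and 1112 normalized counts in BODIPY-high libraries, against 19.7, 9.28 and 117 in BODIPY-low libraries. Cd93, a lectin-like receptor of myeloid and endothelial cells, had 195, 243 and 784 in BODIPY-high libraries, against 38.4, 19.6 and 56.9 in BODIPY-low libraries. Thbd, thrombomodulin, had 173, 166 and 812 in BODIPY-high libraries, against 38.4, 17.5 and 18.95 in BODIPY-low libraries. In all 3 receptors BODIPY-high library 3 was the highest of its gate by more than 2 times. The regulator Ahr, the aryl hydrocarbon receptor, also had its highest value there, with 223, 139 and 529.7 in BODIPY-high libraries, against 15.4, 14.4 and 17.9 in BODIPY-low libraries.

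Among transporters on no list, Kcnk1, a potassium leak channel, had 94.1, 139.6 and 129.7 normalized counts in BODIPY-high libraries, against 0, 3.09 and 2.11 in BODIPY-low libraries. Slc16a12, of the monocarboxylate carrier family, had 259 reads in BODIPY-high libraries and 1 in BODIPY-low libraries, a ratio of 237 (95% counting interval 42.2 to 9410). Slc16a8, another monocarboxylate carrier, had 70.1, 72.8 and 70.8 normalized counts in BODIPY-high libraries, against 3.29, 5.16 and 1.05 in BODIPY-low libraries, so its BODIPY-high libraries were nearly equal. Slc38a3, a glutamine carrier, lay at the edge of the rule, with 120.1, 288 and 233 in BODIPY-high libraries, against 51.6, 39.2 and 56.9 in BODIPY-low libraries.

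Secreted proteins on no list included A2m, a protease inhibitor, with 630 reads in BODIPY-high libraries and 2 in BODIPY-low libraries, a ratio of 289 (79.6 to 2389). Bmp7, a growth factor, had 237 reads in BODIPY-high and 1 in BODIPY-low libraries, a ratio of 217 (38.6 to 8614). The related Bmp2 had 75.1, 88.7 and 368 normalized counts in BODIPY-high libraries, against 3.29, 0 and 27.4 in BODIPY-low libraries, and the related Bmp6, on the choroid plexus list, had 41.04, 58.8 and 99.3 in BODIPY-high libraries, against 4.39, 1.03 and 0 in BODIPY-low libraries. Of these 3 growth factors, Bmp2 was the one whose BODIPY-high library 3 stood apart.

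Enzymes on no list included Abat and Maob, which break down GABA and monoamines. Abat had 383, 409.8 and 296 normalized counts in BODIPY-high libraries, against 16.5, 1.03 and 32.6 in BODIPY-low libraries. Maob had 182, 310.1 and 143 in BODIPY-high libraries, against 5.49, 2.06 and 6.32 in BODIPY-low libraries, and library 3 was the lowest BODIPY-high library of both. Vnn3, of the vanin family, was highest in BODIPY-high library 3, with 107, 179 and 498 in BODIPY-high libraries, against 15.4, 5.16 and 42.1 in BODIPY-low libraries. Cyb561, a membrane cytochrome, averaged 242 ± 110.0 normalized counts in BODIPY-high and 14.9 ± 4.97 in BODIPY-low libraries.

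Of the cytoskeletal and ciliary proteins on no list, the tubulin Tubb4a had 127, 117 and 898 normalized counts in BODIPY-high libraries, against 23.04, 18.6 and 14.7 in BODIPY-low libraries. Its BODIPY-high library 3 was 7.36 times the mean of libraries 1 and 2, the highest such ratio of the 152. Drc7, of the regulatory complex of motile cilia, had 130.1, 309 and 299 in BODIPY-high libraries, against 1.097, 0 and 32.6 in BODIPY-low libraries. Cfap52, of cilia and flagella, had 219 reads in BODIPY-high libraries and 0 in BODIPY-low libraries, at least 66.9-fold higher. Zfp185, with no role assigned, had 195 reads in BODIPY-high and 0 in BODIPY-low libraries, at least 59.6-fold higher. Cnn3, a calponin, averaged 334 ± 46.7 in BODIPY-high and 35.2 ± 8.21 in BODIPY-low libraries.

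Among signalling proteins on no list, the kinase Stk39, which regulates chloride cotransporters, had 255, 384 and 486 normalized counts in BODIPY-high libraries, against 6.58, 27.8 and 109.5 in BODIPY-low libraries. Ppp1r1b, the phosphatase inhibitor DARPP-32, had 188, 352 and 315 in BODIPY-high libraries, against 12.1, 6.19 and 30.5 in BODIPY-low libraries. Of members with no role, Gpm6a had 330.3, 715 and 499 in BODIPY-high libraries, against 40.6, 1.03 and 36.9 in BODIPY-low libraries. Strip2 had 276, 341 and 198 in BODIPY-high libraries, against 1.097, 1.03 and 34.7 in BODIPY-low libraries. Chp2 had 119, 145 and 469 in BODIPY-high libraries, against 0, 8.25 and 33.7 in BODIPY-low libraries. BODIPY-high library 3 was the highest of its gate in Chp2 and the lowest in Strip2.

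The rule named no ratio among BODIPY-high libraries, but it limited their balance, since the lowest of them had to pass both the BODIPY-high limit and the gap. Genes with a low BODIPY-high library could thus be left out, a filter that the background of all genes tested did not pass through. The balance of the members that remained is given here by list, as a description. BODIPY-high library 3 over the mean of libraries 1 and 2 had a median of 1.20 in the choroid plexus members (0.704 to 2.61), 4.30 in the macrophage members (2.51 to 6.22) and 1.52 in the astrocyte members (1.20 to 3.37). The ratio ranges of the choroid plexus and macrophage members overlapped between 2.51 (Mgl2, macrophage list) and 2.61 (Igf2, choroid plexus list). The median was 1.27 in the members on no list (0.579 to 7.36) and 1.00 over all genes tested, of which 90% lay between 0.569 and 2.11. The ratio reached 1.5 in all 10 macrophage members, 5 of 34 choroid plexus members and 37 of 89 members on no list, against 11.1% of all genes tested. All of these ratios compare the same 3 libraries, so genes are not independent replicates, and the ratio carries no test.

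Members on no list fell on both sides. Of the 89, 22 reached a ratio of 2, led by Tubb4a (7.36), Mndal (4.86), Thbd (4.795), Bmp2 (4.49) and Myof (4.204), and 52 were under 1.5. Mndal and Ifi203, interferon-induced genes whose loci overlap, had the highest value of each gate in library 3. Mndal had 48.05, 57.8 and 257 normalized counts in BODIPY-high libraries, against 1.097, 0 and 22.1 in BODIPY-low libraries. Ifi203 had 49.05, 60.8 and 229.9 in BODIPY-high libraries, against 5.49, 5.16 and 21.1 in BODIPY-low libraries, and reads shared by this pair are uncertain. By role over all 152, the median ratio was 2.80 in the 24 receptors. It was 1.19 in the 26 transporters and channels and 1.12 in the 17 secreted and matrix proteins. Of the 24 receptors, 9 were on the macrophage list and 10 on no list, so their median partly restates the macrophage values. Over all 152, library 3 was the highest BODIPY-high library in 87, library 2 in 57 and library 1 in 8, and library 1 was the lowest in 114.

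**Figure D5:**
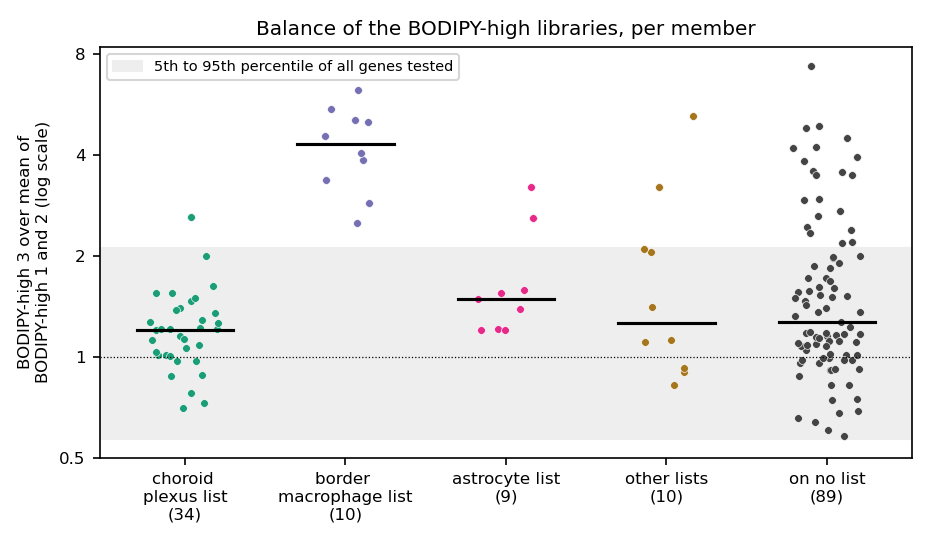
BODIPY-high library 3 over the mean of BODIPY-high libraries 1 and 2 (log scale, y axis) for each member by list (x axis), with bars at medians, a dotted line at equality and grey for the middle 90% of all genes tested; a gene on 2 lists, such as Ednrb, is plotted once, under the first. The macrophage members lie above the grey band, the choroid plexus members lie within it except for Igf2, and members on no list lie both within and above it.

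The few BODIPY-low reads of the members were unevenly spread too. BODIPY-low library 3 held a median of 71.0% of the BODIPY-low counts of choroid plexus members, 63.2% of macrophage members and 39.5% of members on no list, against 33.4% over all genes tested. In 13 members library 3 was the one BODIPY-low library with reads. The marker sums of both groups were thus highest in the same BODIPY-low library, and the part of marker content in these values was not tested.

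The limits of the rule cut through a continuous range of values. Just inside the BODIPY-low limit of 50 lay Pfn2 (mean 49.8 normalized counts) and Slc38a3 (49.2), and just outside lay F5 (50.7) and Car2 (52.8). Just inside the BODIPY-high limit of 40 were Mapk4 and Mlf1, whose lowest library was at 40.04, and just outside were Fbln5 (39.9) and Car10 (39.0). The gap was 2.03 in Gsta4 and 2.09 in Gja1, against 1.99 in Scube3 and 1.98 in Mfsd6.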

How the data were processed

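RNA of 3 BODIPY-high and 3 BODIPY-low libraries was measured. Per the labels' protocols, cDNA was made with the Smart-seq v4 kit and libraries with Nextera XT, which keep no strand. The authors used FastQC 0.11.4 for read quality and STAR 2.5.3a for alignment (mm10) and gene counting, followed by DESeq2 with default settings, per the series' design text. The submitters' processing notes also list mm9. Which annotation and strand setting they used is not given in the sources used here. Values as deposited are a normalized signal: gene counts that the authors divided by 1 size factor per library (0.911 to 1.09). Every value (100% in each library) was a whole number of reads within 0.05 of a read, and the reads behind it were recovered. The table shows dates in place of 23 gene names, none of which is reported.

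The members, the marker lists and the roles were chosen with earlier results of these data known. Limma 3.58.1 (limma-trend, R 4.3.3) was fitted two-sided on log2(normalized count + 1) over 12767 genes with at least 10 in at least 3 of 6 libraries, with Benjamini-Hochberg adjustment and tested on simulated data, and serves as background. Log2 differences on this scale understate changes of low genes. Deviations from the gate means correlated at 0.354, 0.244 and 0.363 between libraries of the same number and at -0.255 to -0.0951 otherwise. Centring within each gate partly forces the negative values. Numbers were taken to pair the libraries across gates, from the data and not the labels. The main fit, the SDs and the ratios of means leave this pairing out, and fits with the block include it. Ratios are of means of normalized counts. Ratios of reads carry 95% exact counting intervals. Coordinates and exon overlaps come from GENCODE M21 (mm10), which matched 151 of the 152 symbols to 1 gene, all protein coding; 39 share exon bases with another gene, 13 of them over 10%. Named were up to 8 members of each list by BODIPY-high mean, 15 on no list, the 10 with the largest gap, those nearest each limit and members of 18 symbol families. Other named genes were chosen after their values were seen. Results of some single genes are not reported here. Alternatives tried were other limits of the rule, scalings, pseudocounts, filters, the block, edgeR 4.0.16 and DESeq2 1.42.0 on recovered reads, and each library left out.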

Additional observations from a re-analysis of the deposited data

How the results depend on the processing

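The rule gave 152 genes, against 236 and 88 with a BODIPY-high limit of 20 and 80, 98 with a gap of 4, and 156 to 244 with 1 library left out (244 without BODIPY-high library 1). With the gap asked for within libraries of the same number (replicate block) it gave 189. Other limits gave 124 (BODIPY-low mean under 25), 172 (under 100) and 181 (gap of 1.5), equal totals 150 and TMM scaling 148. Genes called higher were 259, against 131 with a filter of 50 in 3 libraries, 558 with the replicate block, 464 with DESeq2, 222 with edgeR and 15 to 271 with 1 library left out (15 without BODIPY-high library 2). Genes called lower were 3, against 1 with the filter of 50, 59 with the block, 1 with edgeR, 32 with DESeq2 and 0 to 2 with 1 library left out; where limma called 0, 217 to 368 genes were lower at an unadjusted p under 0.05. The cause of these shifts was not tested. Of 680 alternatives of the ratios of 80 named members, 668 moved by less than the spread between replicates, 12 moved higher and 0 reversed. That spread combines the log2 variances of both gates over all 6 libraries, the omitted one included, so an outlying library widens it. Large shifts can thus count among the 668, such as Kl from 25.5 to 59.9 without BODIPY-low library 3. The gap of 2 in the rule fixed in advance that none could reverse, so the lack of reversals gives no support. Of the 12, 10 were without BODIPY-low library 3 (to 282 for Sulf1 and 449 for Drc7), 1 without library 2 (Col8a1, 227) and 1 without library 1 (Bmp6, 129). Alternatives with a BODIPY-low value of 0 to divide by gave no ratio and are not among the 680. The block left 52 ratios, and without BODIPY-low library 3 10 moved and 61 did not. Members with BODIPY-low reads in library 3 alone have no ratio without it, so the 12 understate the dependence on that library. Members with under 10 BODIPY-low reads are limited by depth, so their ratios are uncertain by several times.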

Other observations

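The same rule with the gates exchanged gave 1 gene. Dll1, a ligand of Notch receptors, had 7.01, 27.9 and 8.28 normalized counts in BODIPY-high libraries 1, 2 and 3, against 76.8, 79.4 and 75.8 in BODIPY-low libraries 1, 2 and 3. Its limma adjusted p over all genes tested was 0.0588, and it was chosen for this pattern.

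The gene left out as predicted, 1500015O10Rik, had 162, 186 and 312 normalized counts in BODIPY-high libraries, against 2.19, 9.28 and 8.42 in BODIPY-low libraries. The RefSeq table names it Ecrg4, which is on the choroid plexus list.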
